A study of Rattus norvegicus with 12 samples.

Results

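Lungs of rats labelled Ahr-KO were compared with lungs of wild-type (WT) rats under the same treatment, 3 libraries against 3, by RNA sequencing of total lung tissue. All rats were Sprague-Dawley, and both groups were sampled at day 4 of Sugen-Hypoxia (SuHx), which combines SU5416, an inhibitor of VEGF receptors, with low oxygen and is used as a model of pulmonary arterial hypertension. The table gave 1 value per library for 19230 rows of gene symbols, and 15230 of them, whose mean over these 6 libraries was 1 or more, were compared. Signal here is the estimated number of reads, scaled by 1 factor in each library. At that limit, Nrk (1.01) and Aadat (1.01) were the lowest means kept, and Inhbe (0.999) and Pnck (0.999) were left out. The series held 12 libraries. Of the remaining 6, the 3 of WT lung in normoxia at day 0 entered the same fit to help estimate the spread. The 3 of endothelial cells from WT rats in normoxia were used for a description of where genes are expressed and in the alternative fit of all 12 libraries. For these endothelial cells the labels give day 4 and the column names day 0. No Ahr-KO lung in normoxia is among these samples, so whether a difference preceded the treatment was not tested. The labels do not say which part of Ahr is deleted or in which cells, do not give the age or sex of the rats, and do not say whether the replicates are separate animals, so p-values measure the spread between these samples.

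The aryl hydrocarbon receptor (AhR), the product of Ahr, is a transcription factor that waits in the cytosol bound to chaperones, binds planar ligands such as dioxins, tryptophan metabolites and some drugs, moves to the nucleus and pairs with ARNT. The pair binds DNA at xenobiotic response elements, whose core is GCGTG, and switches on enzymes that oxidise and conjugate the ligand (CYP1 cytochromes, NQO1, UGT1A6, ALDH3A1) together with its own inhibitors, the repressor AHRR and the ADP-ribosyltransferase TIPARP. In the lung, CYP1A1 is known to be inducible in endothelial and epithelial cells.

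The stretch of 250 bases before the annotated start is shown for 4 AhR target genes that were lower in the lungs labelled Ahr-KO and for Ackr3, a lower gene outside that list with 3 core matches, so that the values below can be read beside the DNA. Sequences are from RefSeq on build GRCr8, 5′ to 3′ on the gene's strand, and capitals mark GCGTG or its reverse complement CACGC.
Ahrr, plus strand, chr1:30821969-30822218: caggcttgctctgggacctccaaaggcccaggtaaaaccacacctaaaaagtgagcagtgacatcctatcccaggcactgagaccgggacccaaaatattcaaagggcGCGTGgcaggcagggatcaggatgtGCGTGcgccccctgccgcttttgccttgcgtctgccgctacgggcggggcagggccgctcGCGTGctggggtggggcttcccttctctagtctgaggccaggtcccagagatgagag
Cyp1b1, plus strand, chr6:21094315-21094564: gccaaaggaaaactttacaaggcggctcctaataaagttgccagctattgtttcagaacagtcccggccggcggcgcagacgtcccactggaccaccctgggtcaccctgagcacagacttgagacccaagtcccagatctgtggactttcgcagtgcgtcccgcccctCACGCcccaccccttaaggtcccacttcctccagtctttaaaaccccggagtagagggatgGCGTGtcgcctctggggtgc
Nqo1, minus strand, chr19:52220268-52220517: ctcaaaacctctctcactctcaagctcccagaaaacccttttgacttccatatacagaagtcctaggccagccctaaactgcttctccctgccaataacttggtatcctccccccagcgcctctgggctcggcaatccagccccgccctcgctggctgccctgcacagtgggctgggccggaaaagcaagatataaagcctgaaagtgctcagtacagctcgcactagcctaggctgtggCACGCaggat
Tiparp, plus strand, chr2:152063519-152063768: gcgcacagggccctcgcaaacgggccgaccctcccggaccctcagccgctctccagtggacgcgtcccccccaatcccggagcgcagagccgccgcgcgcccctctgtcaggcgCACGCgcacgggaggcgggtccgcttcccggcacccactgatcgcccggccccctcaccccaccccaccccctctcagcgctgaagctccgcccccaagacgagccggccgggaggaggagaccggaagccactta
Ackr3, plus strand, chr9:98247104-98247353: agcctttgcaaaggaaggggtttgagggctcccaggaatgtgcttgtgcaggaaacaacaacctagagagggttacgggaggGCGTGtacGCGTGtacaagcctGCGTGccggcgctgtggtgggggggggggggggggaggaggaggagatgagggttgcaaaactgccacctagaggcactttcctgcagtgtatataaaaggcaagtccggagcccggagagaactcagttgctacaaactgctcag
In the Ahrr stretch the 3 matches begin 142, 117 and 57 bases before the start, and in that of Ackr3 they begin 168, 160 and 146 bases before it. Cyp1b1 has 2 matches, at 81 and 20 bases, Nqo1 has 1 at 10 bases, and Tiparp has 1 at 136 bases. Nfe2l2, another listed target called lower, has a promoter in the RefSeq table with 0 matches and is not shown. Of the genes called lower, 31 have a promoter in the RefSeq table and 14 of these (45.2%) hold GCGTG on either strand. The share is 33.3% (6 of 18) among the genes called higher, 41.3% among the 10916 tested rows with a promoter and 27.2% among all 27457 promoters. The longer TNGCGTG, every match of which is also a match of GCGTG, was found in 9.68% (3 of 31), 5.56% (1 of 18), 6.11% and 4.26% of the same groups. The core was thus nearly as frequent in the promoters of all tested rows as in those of the lower genes, and a match is a description of the letters and not a binding site.

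The 6 libraries held 20.6 M to 21.3 M signal, which stands for 22.5 M to 28.6 M reads. Ahr itself had a signal of 1996, 3073 and 1739.6 in the WT and 2515, 2523 and 1800.0 in the Ahr-KO lungs of this treatment, which overlap (log2 difference 0.03 ± 0.26, adjusted p = 0.965 by limma), so the label is not checked by its level. Reads from parts of the gene that a deletion leaves in place would count here too. Along the first principal component of these 6 libraries (40.8% of the variance) WT lay between -49.1 and -23.9 and Ahr-KO between 20.8 and 55.8, while on the second (27.1%) WT library 2 (-35.6) and Ahr-KO library 2 (-45.2) lay apart from the other 4 (4.09 to 29.6). Ahr-KO 2 stood out in several ways. Its mitochondrially encoded rows COX1, CYTB, ND5, ND6 and the merged row of ATP6 were listed at 0, although every cell uses these genes, whereas COX1 had 88220 to 137328 in the other 5 libraries. ND5 was near 0 in WT library 2 as well. Its summed cardiac muscle markers were 36049, against 8642 and 6639.8 in Ahr-KO 0 and 1 and 3064 to 4022 in WT SuHx. In WT normoxia 0, 1 and 2 this sum was 2047, 1613 and 15616, so 1 WT lung lay above Ahr-KO 0 and 1. Of the 21 cardiac markers tested, 16 were higher in all lungs labelled Ahr-KO than in any WT SuHx lung (76.2%, against 22.0% of all rows without overlap) and 0 were called. Myh6, the atrial myosin heavy chain, named after its values were seen, was listed at 0 in every WT SuHx lung and at 1228, 673 and 4900.1 in the Ahr-KO lungs. Its mean in WT normoxia was 961. Airway secretory markers (13 tested) summed to 136945 to 153663 in WT and to 160629, 154392 and 282689 in Ahr-KO 0, 1 and 2, with Bpifa1, a secreted airway protein, listed at 0 in all WT and at 116, 15.1 and 28979.8 in Ahr-KO. Adipocyte markers (8 tested) reached 2019 in Ahr-KO 2 and 177 to 262 in the other 5. Alveolar markers (18 tested) were abundant in each group, at 501861 to 658909 in WT and 574101 to 621015 in Ahr-KO, and endothelial markers (20 tested) summed to 116664 to 126394 and 102983 to 132270.0. The part of these shifts in the differences below was tested only as far as the counts without Ahr-KO 2 and with the marker levels as a covariate show.

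**Figure D1:**
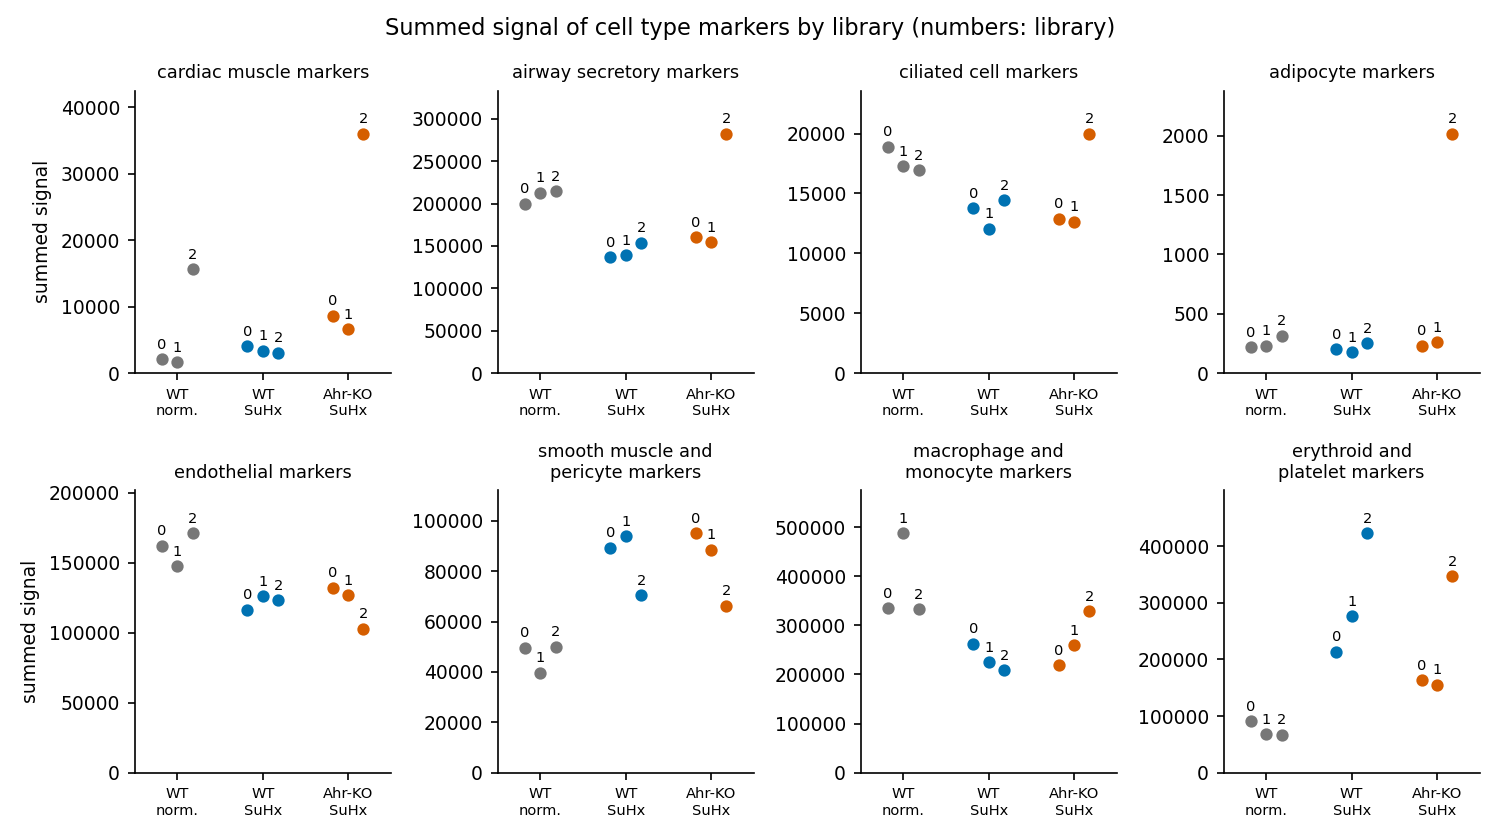
Summed signal of 8 cell type marker lists, 1 point per library, for WT normoxia, WT SuHx and lungs labelled Ahr-KO under SuHx, with the library number above each point. Ahr-KO 2 is the highest point for cardiac, airway secretory, ciliated and adipocyte markers, while endothelial markers overlap between the 2 SuHx groups.

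Of the 15230 rows, limma called 76 (0.499%), 30 higher (0.197%) and 46 lower (0.302%) in the lungs labelled Ahr-KO, with Benjamini-Hochberg adjustment over all of them and a threshold of 0.05. The 3 values of each group did not overlap in any of the 76, and this was so in 22.0% of all rows (11.7% higher and 10.2% lower in Ahr-KO). At least 2-fold were 51 of the calls (0.335% of all rows), 20 higher and 31 lower, at least 4-fold were 20, and at least 8-fold were 11. The median log2 difference over all rows was 0.02. An unadjusted p under 0.05 was found for 2076 rows. Without Ahr-KO 2 the count was 55, with 43 of the 76 among them, and with the mean level of the cardiac or of the airway markers as a covariate it was 26 or 27, each with 20 of the 76. These marker levels differ between the groups, so in the 2 covariate fits genotype and marker level cannot be told apart. In all 22 alternative fits, 16 rows were called: Cyp1a1, Stk32b, Ahrr, Cyp1b1, Nqo1, Pkp1, Cytl1, Tiparp, Edn1 and the merged rows of Ugt1a6 and of Gpbar1 as lower, and Ly6al, Rpl39, Bmp2, Bean1 and Pdgfd as higher.

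Isolated endothelial cells, whose libraries took no part in the fit that gave the 76 calls, were compared with normoxia lung. Rows called higher in endothelial cells made up 26.1% and rows called lower 30.1% of 15186, and of the 46 rows called lower in Ahr-KO lung 25 (54.3%) and 12 (26.1%) were so called, and of the 30 called higher 13 (43.3%) and 7 (23.3%).

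**Figure D2:**
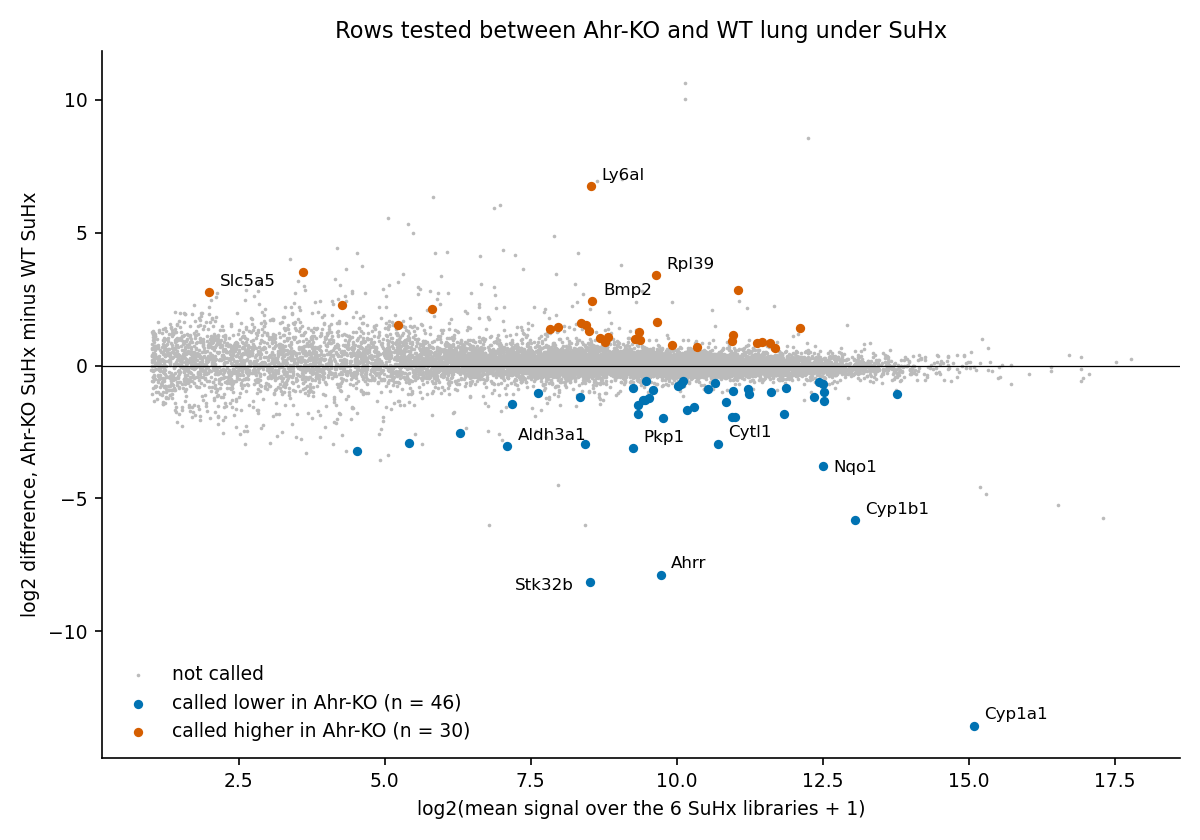
Log2 difference (lungs labelled Ahr-KO minus WT, both SuHx) of each of the 15230 rows against the log2 of its mean signal plus 1 over the 6 libraries. The 46 rows called lower (blue) reach -13.55 at Cyp1a1, the 30 called higher (orange) reach 6.75 at Ly6al, and grey rows were not called.

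AhR target genes were among the rows with the largest differences. Of the 14 listed, all were tested, 8 were called lower, 0 were called higher and 6 were not called, with a median log2 difference of -1.75 against 0.02 for all rows. Of all rows, 0.302% were called lower. Without overlap 9 of the 14 were lower and 1 was higher (71.4%, against 22.0% of all rows). Those called were Cyp1a1, Cyp1b1, Ahrr, Tiparp, Nqo1, Aldh3a1, Nfe2l2 and the merged row of Ugt1a6. Without Ahr-KO 2 the count was again 8, and over all 22 alternatives it lay between 6 and 8.

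Cyp1a1, the cytochrome P450 that oxidises polycyclic aromatic hydrocarbons, had a signal of 65459, 68888 and 75070.5 in the WT lungs and 3.87, 5.31 and 5.32 in those labelled Ahr-KO. It was thus among the abundant transcripts of each WT SuHx lung and close to the level of a few reads in each Ahr-KO lung, below even the WT lungs in normoxia (476, 39.2 and 298). The log2 difference was -13.55 ± 0.72 (SE, adjusted p = 2.09e-05). Cyp1b1, which also oxidises steroids and fatty acids, was at 13776, 20789 and 15459.7 against 269, 219.6 and 422. The Ahr-KO values lie around those of normoxia (292 ± 20.4, SD, n = 3), and the difference was 56.1-fold (adjusted p = 4.38e-06). Ahrr, whose product competes with AhR for ARNT, gave 1466, 2107 and 1480.4 against 4.64, 7.97 and 6.08 (log2 difference -7.87 ± 0.37, adjusted p = 1.31e-05). Tiparp, whose product ADP-ribosylates AhR and limits it, gave 3158, 3963 and 2628 against 786, 901 and 811 (3.85-fold lower, adjusted p = 0.00159). Both feedback inhibitors of the receptor were therefore lower together with the enzymes, with no overlap between groups.

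Nqo1, the quinone reductase shared by AhR and NRF2, had 8410.2, 12102 and 12169 in WT and 738, 739 and 881 in Ahr-KO, 13.7-fold lower (adjusted p = 4.38e-06), and its Ahr-KO values lay below the normoxia mean of 1265 ± 114. The row that merges Ugt1a6, a glucuronosyltransferase, with its neighbours at the same locus gave 1753, 1788 and 2113 against 611, 593 and 709.7 (2.95-fold lower, adjusted p = 2.07e-04). Which of its genes differed cannot be read from a merged row. Aldh3a1, an aldehyde dehydrogenase, was at 183, 231 and 303 against 32.5, 12.4 and 53.2 (8.10-fold lower, adjusted p = 0.0255), and its call was lost in 9 of the 22 alternatives. Nfe2l2, which encodes NRF2, the regulator of antioxidant genes, had 4536, 5317 and 4582 against 2569.6, 2688 and 2789, a smaller difference of 1.79-fold (adjusted p = 0.0103). The 6 members not called were at low signal or differed little. Cyp1a2 was near the limit of detection in both groups (1.89, 1.53 and 17.9 against 0, 0.886 and 0, adjusted p = 0.298). Xdh (log2 difference -0.13 ± 0.16), Slc7a5 (0.12 ± 0.13), Cyp2s1 (0.31 ± 0.13), Scin (0.76 ± 0.60) and Serpinb2 (0.07 ± 0.62) had adjusted p-values of 0.732, 0.698, 0.346, 0.581 and 0.971. Among the 16 genes of the AhR complex and its partners, 0 were called (median 0.04), and the abundant chaperone gene Hsp90ab1 had a log2 difference of -0.59 ± 0.15 (adjusted p = 0.153) and the row merging Itm2b with Rb1 0.24 ± 0.11.

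Several genes outside the target list also had large differences. Stk32b, which encodes a serine/threonine kinase, was at 733, 912 and 549 in WT and 2.32, 1.77 and 0.760 in Ahr-KO, so that all Ahr-KO values were at the level of a few reads (log2 difference -8.15 ± 0.42, adjusted p = 2.09e-05). Pkp1, encoding the desmosomal plaque protein plakophilin, gave 1021, 1353 and 894 against 163, 126 and 93.5 (8.58-fold lower, adjusted p = 0.00161). Cytl1, a secreted cytokine-like protein, gave 3020.3, 3342 and 2492 against 435, 321 and 397 (7.67-fold lower, adjusted p = 0.00161). In these 3 genes the highest Ahr-KO value lay several-fold under the lowest WT value. Mfrp, a frizzled-related membrane protein, was lower at a weak signal (52.0, 35.9 and 32.8 against 2.32, 5.31 and 3.04, adjusted p = 0.0437), as were Ms4a8 (7.50-fold, adjusted p = 0.0180) and Pmfbp1 (5.81-fold, adjusted p = 0.0458). The calls of Mfrp and Pmfbp1 were lost in 13 alternatives each, among them that without Ahr-KO 2 (0.107 and 0.119).

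**Figure D3:**
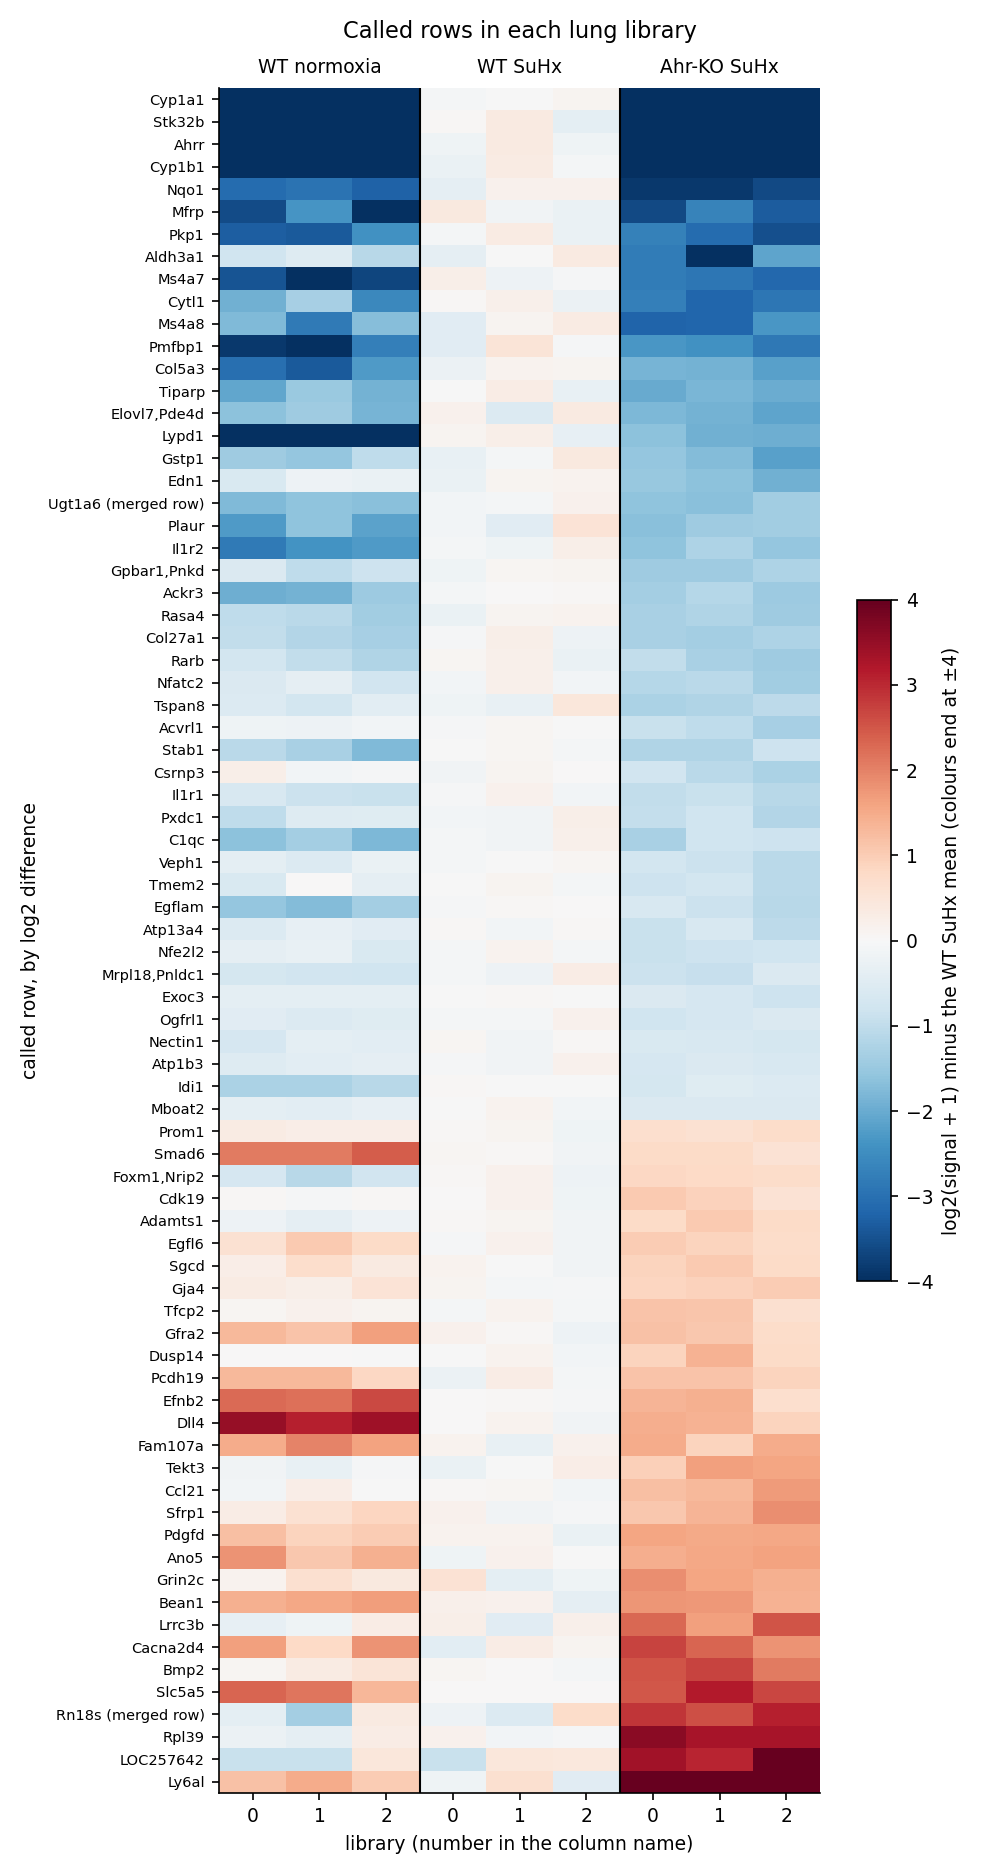
Log2(signal + 1) of the 76 called rows in the 9 lung libraries, minus the mean of the WT SuHx libraries of that row, ordered by log2 difference, with colours ending at 4 in each direction. The 3 columns labelled Ahr-KO are blue for 46 rows and red for 30, and the normoxia columns, which took no part in the contrast, are shown for their level.

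Genes of the vessel wall were called in both directions. Edn1, Acvrl1 and Ackr3 were lower, while Bmp2, Smad6, Dll4, Efnb2, Gja4 and Pdgfd were higher in the lungs labelled Ahr-KO. Since whole lung was sequenced, fewer cells of a type and less RNA per cell cannot be told apart. Edn1, the precursor of the vasoconstrictor endothelin 1, had 1465, 1888 and 1921 in WT and 604, 564 and 463 in Ahr-KO. The highest Ahr-KO value was under the lowest of WT and of normoxia (1363 ± 198), and the gene was 3.23-fold lower (adjusted p = 0.00161). It was the 1 call among 35 endothelin, nitric oxide and prostanoid genes (median -0.01).

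Acvrl1, the endothelial BMP9 and BMP10 receptor ALK1 that is mutated in hereditary haemorrhagic telangiectasia and in some heritable pulmonary hypertension, was at 18179, 19972 and 18757 against 10303, 9285 and 7515 (2.12-fold lower, adjusted p = 0.00758). The ligand gene Bmp2 went the other way, with 121, 115 and 109 in WT and 667, 751 and 492 in Ahr-KO (5.40-fold higher, adjusted p = 4.00e-04), also above normoxia (123, 144 and 166). Smad6, an inhibitory Smad induced by BMP signals, had 1050.0, 1031 and 899 against 1681, 1672 and 1476 (1.62-fold, adjusted p = 0.0386), and both groups stayed below its normoxia level of 4564 ± 632. The Smad6 call was lost in 11 of the 22 alternatives, among them that without Ahr-KO 2 (0.0610). These 3 were the calls among 43 BMP and TGF-beta genes (2 higher, 1 lower, 40 not called, median 0.14). Of the 43, 10 were higher and 2 lower without overlap (27.9%, against 22.0% of all rows).

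Dll4, the Notch ligand of arterial and tip cells, had 385, 424 and 344 in WT and 1052, 1002 and 715 in Ahr-KO (2.37-fold higher, adjusted p = 0.0118), against 3844 ± 510.4 in normoxia. It was the 1 call among 16 Notch genes (median 0.08), of which 3 were higher and 2 lower without overlap (31.3%, against 22.0% of all rows). Hey1, a Notch target chosen here after its values were seen, missed the threshold, with 106, 106 and 86.4 against 266, 259 and 172 (log2 difference 1.19 ± 0.22, adjusted p = 0.0551). Efnb2, the arterial ephrin, was at 1228, 1239.5 and 1162 against 3102, 3246 and 1941 (2.23-fold higher, adjusted p = 0.0379), and Gja4, the arterial connexin 37, at 1464, 1298 and 1313 against 2466, 2593 and 2729 (1.91-fold higher, adjusted p = 0.00352). The Efnb2 call was lost in 11 of the 22 alternatives, and those of Dll4 and Gja4 in 5 and 2. For Dll4 and Efnb2 the Ahr-KO lungs lay between WT SuHx and normoxia, whereas Gja4 lay above both. Pdgfd, a growth factor for smooth muscle and fibroblasts, gave 193, 196 and 145 against 525, 510.1 and 514 (2.92-fold higher, adjusted p = 0.00179). Among 21 VEGF and angiopoietin genes 0 were called (median 0.03), with Vegfa at a log2 difference of 0.16 ± 0.18 (adjusted p = 0.717) and its co-receptor gene Nrp1 at 0.071 (adjusted p = 0.886). Of these 21, 5 were higher and 2 lower without overlap (33.3%, against 22.0% of all rows). The capillary markers, 10 genes, were not called either, and 5 of them were higher without overlap (50%, against 22.0% of all rows).

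**Figure D4:**
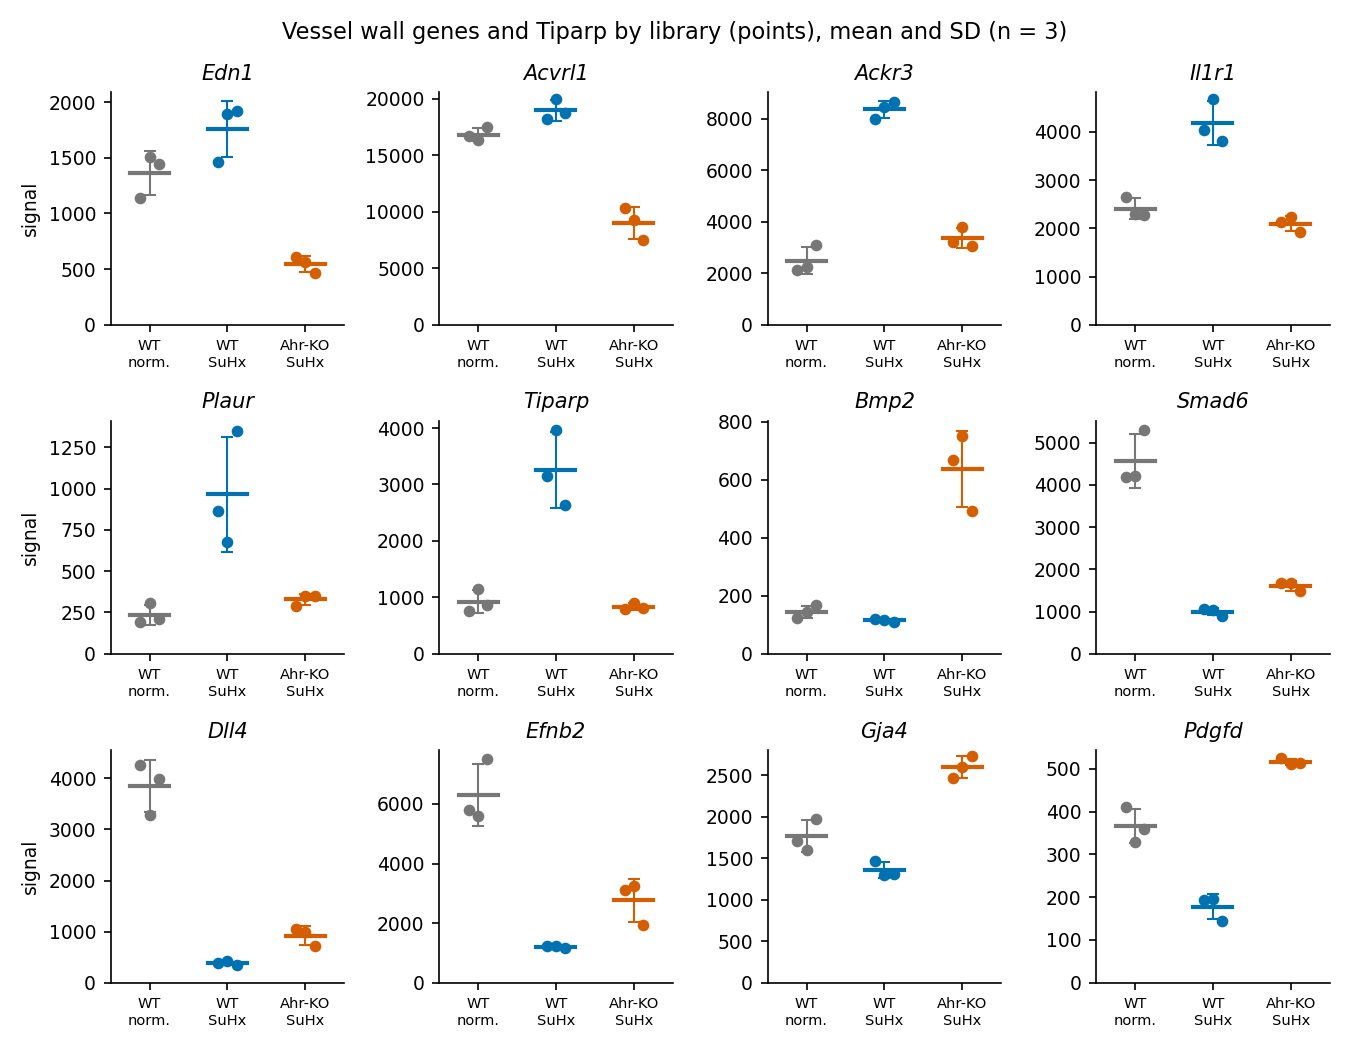
Signal of 12 called genes in each library (points) with the group mean (bar) and SD (n = 3), for WT normoxia (grey), WT SuHx (blue) and lungs labelled Ahr-KO under SuHx (orange), each axis starting at 0. The orange points lie under the blue ones for Edn1, Acvrl1, Ackr3, Il1r1, Plaur and Tiparp and above them for Bmp2, Smad6, Dll4, Efnb2, Gja4 and Pdgfd.

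Chemokine, interleukin and complement genes gave a few calls each. Ackr3, the scavenging receptor of CXCL12, had 7978, 8458 and 8631 in WT and 3224, 3805 and 3048 in Ahr-KO (2.50-fold lower, adjusted p = 0.00368). Ccl21, the CCR7 ligand made by lymphatic endothelium, had 2500.1, 2515 and 2215 against 5554, 5948 and 7907 (2.66-fold higher, adjusted p = 0.00347). Ackr3 and Ccl21 were the calls among 44 chemokine genes (median -0.00216). The 8 lymphatic markers summed to 16968 to 18292 in WT and 20594 to 21394 in Ahr-KO, but these sums include Ccl21 itself. Pdpn, the most abundant of the 8, had means of 9846 in WT and 8683 in Ahr-KO and was not called. Of the 8, 7 had a positive log2 difference (median 0.21). Without overlap 3 were higher, Ccl21 among them, and 0 lower (37.5%, against 22.0% of all rows). Both interleukin 1 receptors were lower: the signalling receptor Il1r1 at 4029.7, 4688 and 3818 against 2126, 2237 and 1930.0 (1.99-fold, adjusted p = 0.00382) and the decoy receptor Il1r2, a neutrophil gene as well, at 199.6, 187 and 248 against 68.1, 88.6 and 71.4 (2.76-fold, adjusted p = 0.0292). They were the 2 calls among 51 interleukin genes, of which 11 were lower and 3 higher without overlap (27.5%, against 22.0% of all rows). The call of Il1r2 was lost without Ahr-KO 2 (0.0729). Most neutrophil markers did not share its direction: of 16 tested, 13 had a positive log2 difference (median 0.57). Il1r2 was the 1 that did not overlap (6.25%, against 22.0% of all rows), and the sums of the 16 overlapped (9678 to 14759 in WT and 9471 to 14316 in Ahr-KO).

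C1qc, a subunit of complement C1q made by macrophages, had 2492, 2354 and 3035 against 1057, 1497 and 1483 (1.96-fold lower, adjusted p = 0.0458), a call lost in 15 of 22 alternatives, including that without Ahr-KO 2 (0.0729). It was the 1 call among 31 complement genes, of which 11 were lower and 3 higher without overlap (45.2%, against 22.0% of all rows). Its partner subunits, named after their values were seen, had similar differences that missed the threshold, with 2178, 1944 and 2917 against 939, 1239 and 1321 for C1qb (adjusted p = 0.0551) and 2100.0, 2142 and 3013 against 965, 1300.0 and 1589.6 for C1qa (adjusted p = 0.0821). Ms4a7, a membrane protein of macrophages, was lower as well (708, 526 and 589 against 86.7, 79.7 and 66.9, 7.71-fold, adjusted p = 0.0147, and 0.0540 without Ahr-KO 2, where the call was lost). The 19 macrophage and monocyte markers did not share this direction. Of them, 4 were lower without overlap, which are Ms4a7 and the 3 C1q genes, and 6 were higher (52.6% in all, against 22.0% of all rows). Cd163, a scavenger receptor named after its values were seen, had 95.5, 71.1 and 140.0 against 333, 465 and 655 (adjusted p = 0.0754). Among 14 MHC class II genes 0 were called, and 7 were lower and 0 higher without overlap (50%, against 22.0% of all rows, median -0.24). Cd74, the invariant chain, was at -0.53 (adjusted p = 0.224) and RT1-Da at -0.37 (adjusted p = 0.238). Interferon-stimulated genes (28), leukocyte adhesion genes (18) and NF-kappaB genes (19) held 0 calls, with medians of -0.07, -0.06 and -0.04. Their most abundant members had log2 differences of -0.076 (Ifi27), -0.33 (Bst2), -0.10 (Itgb1), -0.42 (Icam1), 0.13 (Nfkbia) and -0.49 (the row of Nfkbie), with adjusted p-values of 0.125 to 0.909.

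Matrix genes were called in small number. The fibrillar collagen genes Col5a3 (1179, 1513 and 1492 against 384, 373 and 306, 3.92-fold lower, adjusted p = 0.00918) and Col27a1 (964, 1158 and 868 against 406, 382 and 417, 2.46-fold lower, adjusted p = 0.00324) were the calls among 31 collagen genes, whose median was -0.04. Adamts1, a protease that cleaves versican, was 1.82-fold higher (2192 ± 188 in WT and 3992 ± 447 in Ahr-KO, SD, n = 3, adjusted p = 0.00860). It was the 1 call among 37 genes of matrix turnover and elastic fibres, of which 11 were higher and 1 lower without overlap (32.4%, against 22.0% of all rows, median 0.23). Plaur, the urokinase receptor, had 866, 677 and 1350.1 against 291, 347 and 350.3 (2.81-fold lower, adjusted p = 0.0439). The call was lost in 14 alternatives, among them that without Ahr-KO 2 (0.0935), and it was the 1 call among 29 coagulation and fibrinolysis genes. Sfrp1, a secreted Wnt antagonist, was 2.71-fold higher (147, 119 and 127 against 278, 337 and 481, adjusted p = 0.0317, and 0.0610 without Ahr-KO 2). It was the 1 call among 43 Wnt and Hedgehog genes, of which 12 were higher and 2 lower without overlap (32.6%, against 22.0% of all rows, median 0.25). Rarb, a retinoic acid receptor, was 2.35-fold lower (adjusted p = 0.0185, and 0.0610 without Ahr-KO 2), and with Efnb2 it made the 2 calls among 47 retinoid and axon guidance genes.

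The lists of xenobiotic enzymes outside CYP1, NRF2 targets and lipid synthesis genes held 2 calls, both lower. Nqo1, Aldh3a1, Nfe2l2 and the Ugt1a6 row, which were lower too, were counted with the AhR targets and not here. Of 31 xenobiotic enzymes outside CYP1, Gstp1, a glutathione transferase, was the 1 called (4521, 5298 and 7362 against 1909, 1701 and 1232, 3.53-fold lower, adjusted p = 0.00758). Among 16 NRF2 target genes 0 were called, but 9 were lower and 0 higher without overlap (56.3%, against 22.0% of all rows), with a median of -0.42. The members nearest to the threshold, named after their values were seen, were the thioredoxin reductase gene Txnrd1 (2500.1, 2710.0 and 2452 against 1792, 1953 and 1865, adjusted p = 0.0522) and Srxn1, which repairs oxidised peroxiredoxins (341, 624 and 407 against 116, 170.0 and 187, adjusted p = 0.0551). The most abundant members, the ferritin genes Fth1 and Ftl1, had log2 differences of -0.078 (adjusted p = 0.873) and -0.62 (adjusted p = 0.130). Of 32 cholesterol and fatty acid synthesis genes, Idi1, an isomerase of the isoprenoid pathway, was called (1365, 1295 and 1294 against 805, 932 and 895, 1.50-fold lower, adjusted p = 0.0354, and 0.0756 without Ahr-KO 2). In this list 17 genes were lower and 2 higher without overlap (59.4%, against 22.0% of all rows), with a median of -0.19. Cyp51, a demethylase of cholesterol synthesis named after its values were seen, had a log2 difference of -0.42 ± 0.10 (adjusted p = 0.118). Me1 belongs to both the NRF2 and the lipid list.

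DNA replication and mitosis genes had a positive log2 difference in 39 of the 45 tested, and 0 were called. In this list 21 genes were higher and 1 lower without overlap (48.9%, against 22.0% of all rows), with a median of 0.29. Ccna2, a cyclin of S phase and mitosis named after its values were seen, had 897, 896 and 786 in WT and 1045, 1282 and 1252 in Ahr-KO (log2 difference 0.47 ± 0.12, adjusted p = 0.159), and the proliferation marker Mki67, named likewise, 2188, 2149 and 1707 against 2964, 3501 and 2654 (adjusted p = 0.306). The groups do not overlap in either, and neither passed the test. A row that merges Foxm1, a mitotic transcription factor, with its neighbour Nrip2 was called (1.73-fold higher, adjusted p = 0.0480), whereas the row of Foxm1 alone overlapped between groups (0.70 ± 0.28, adjusted p = 0.331). Of 63 cytosolic ribosomal protein genes, Rpl39 was the 1 called, and the median was -0.12. Hypoxia and glycolysis genes (33), oxidative phosphorylation genes (45), potassium channels (33), immediate early and heat shock genes (45), glucocorticoid and clock genes (29), ATF4 and p53 targets (34), matricellular proteins (30) and PPAR-gamma genes (33) held 0 calls. In these 8 lists the share of genes that did not overlap between groups ran from 11.1% (oxidative phosphorylation, 5 genes) to 33.3% (immediate early and heat shock, 6 higher and 9 lower), against 22.0% of all rows. Among the most abundant members of these 9 lists, DNA replication included, log2 differences were -0.14 for Ccnd1, 0.028 for the row of Pcna, -0.20 for Epas1, -0.079 for Atp5b, -0.24 for Atp5a1, 0.24 for Kcnj15, -0.58 for Hspa5, -0.50 for Dnaja1, -0.57 for Lcn2, -0.047 for Tsc22d3, -0.26 for Atf4, -0.23 for Slc3a2, -0.12 for Sparc, 0.12 for Fn1, 0.24 for Ucp2 and 0.56 for Lpl. The nearest to a call among them was Aldoa, a glycolytic aldolase, with a log2 difference of -0.65 ± 0.12 (adjusted p = 0.0598).

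**Figure D5:**
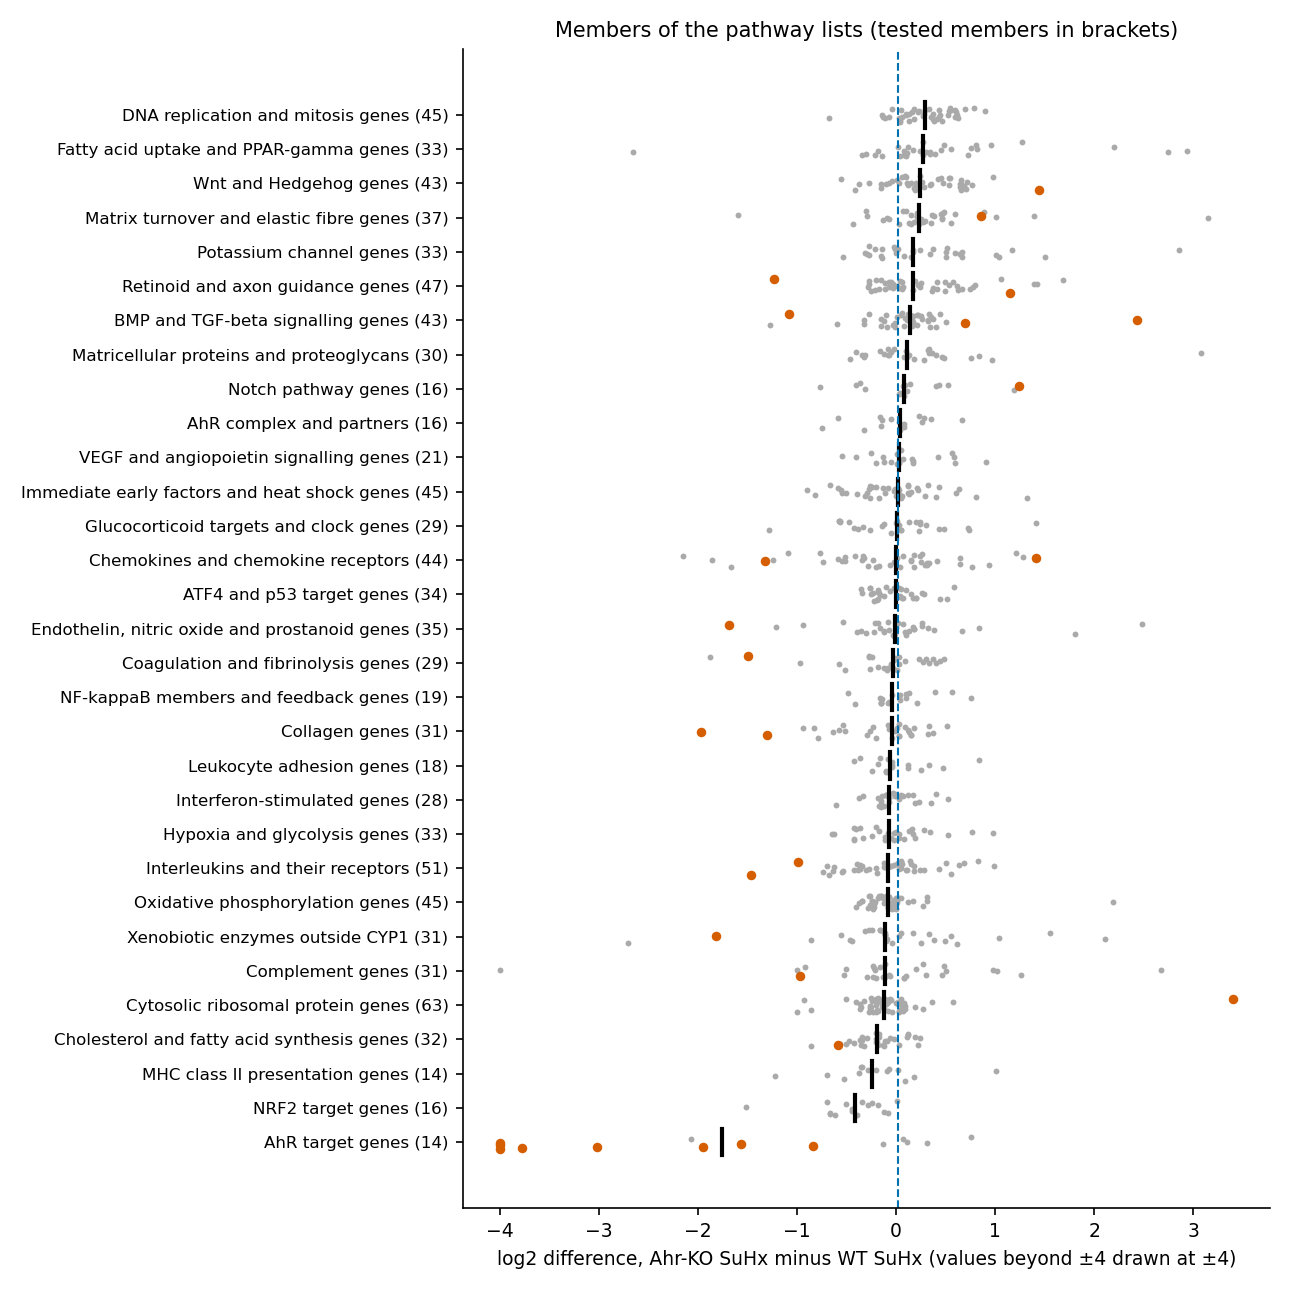
Log2 differences (lungs labelled Ahr-KO minus WT, both SuHx) of the tested members of 31 pathway lists, with called members in orange, the median of each list as a black bar and the median of all rows (0.02) as a dashed line, values beyond 4 in either direction drawn at 4. AhR targets have the lowest median (-1.75) and 8 orange points, while most lists hold 0 to 2 and have medians near the dashed line.

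Among the genes that were higher were Ly6al, Rpl39 and Bean1. Ly6al, a member of the Ly6 family, was at 4.73, 9.18 and 3.72 in WT and 685, 1014 and 495 in Ahr-KO, so it was close to a few reads in each WT lung and abundant in each Ahr-KO lung (log2 difference 6.75 ± 0.36, adjusted p = 2.09e-05). Rpl39, a protein of the large ribosomal subunit, gave 154, 125 and 131 against 1682, 1347 and 1349 (10.6-fold higher, adjusted p = 3.04e-05). In the endothelial cell libraries of WT rats in normoxia Rpl39 had 93.4, 105 and 1098, so its level also varied widely within a WT group. Bean1 had 445, 436 and 306 against 1331, 1309.7 and 1026 (3.11-fold, adjusted p = 0.00236). All 3 were called in each of the 22 alternatives. Other differences of more than 2-fold were those of Cacna2d4, a calcium channel subunit (4.82-fold, adjusted p = 0.0458), Lrrc3b (4.43-fold, adjusted p = 0.0292), the NMDA receptor subunit Grin2c (3.07-fold, adjusted p = 0.0317), Ano5 (2.92-fold, adjusted p = 0.0381), the tektin gene Tekt3 (2.62-fold, adjusted p = 0.0332) and Fam107a (2.45-fold, adjusted p = 0.0386). All 6 lost their call without Ahr-KO 2, as did the 3 rows that follow. Named after their values were seen, Slc5a5, which carries iodide into cells, had 4.64, 7.97 and 5.32 in Ahr-KO and was listed at 0 in each of the 3 WT libraries (adjusted p = 0.0332), LOC257642 had 0, 1.53 and 1.49 against 17.8, 14.2 and 31.9 (adjusted p = 0.0386), and the merged row of ribosomal RNA had 439.9, 347 and 848 against 3680.3, 3007 and 4398 (adjusted p = 0.0255). Ribosomal RNA in a library depends on how RNA was prepared. No label gives a preparation batch, so a batch and the genotype cannot be told apart for this row or for any other call.

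Calls at high signal showed smaller differences. Lower were Pxdc1 (1.97-fold, adjusted p = 0.0480), Ogfrl1 (1.60-fold, adjusted p = 0.0240) and Atp1b3, a sodium pump subunit (1.54-fold, adjusted p = 0.0317). Higher were the membrane protein gene Prom1 (1.58-fold, adjusted p = 0.0178), the secreted matrix gene Egfl6 (1.85-fold, adjusted p = 0.0298) and Cdk19, a kinase of the Mediator complex (1.81-fold, adjusted p = 0.0298). Without Ahr-KO 2 the calls of Pxdc1 (0.121), Atp1b3 (0.0756) and Prom1 (0.0573) were lost. The 22 remaining calls were named after their values were seen, and 11 of them were lost without Ahr-KO 2: Tspan8, Csrnp3, Tmem2, Egflam, Atp13a4, Nectin1, Mboat2, Sgcd, Pcdh19 and the rows of Mrpl18 and Foxm1 (adjusted p = 0.0532 to 0.118). Lower were the merged rows of Elovl7 with Pde4d (3.81-fold), Gpbar1 with Pnkd (2.56-fold) and Mrpl18 with Pnldc1 (1.72-fold), and Lypd1 (3.57-fold), the Ras regulator Rasa4 (2.47-fold), the T cell and endothelial transcription factor Nfatc2 (2.30-fold), Tspan8 (2.25-fold), the scavenger receptor Stab1 (2.11-fold), Csrnp3 (2.04-fold), Veph1 (1.87-fold), Tmem2, a hyaluronidase (1.85-fold), Egflam (1.83-fold), Atp13a4 (1.80-fold), the exocyst gene Exoc3 (1.61-fold), the adhesion molecule Nectin1 (1.56-fold) and Mboat2 (1.50-fold). Higher were the protocadherin Pcdh19 (2.08-fold), the phosphatase Dusp14 (2.03-fold), the neurturin receptor Gfra2 (1.98-fold), the transcription factor Tfcp2 (1.95-fold), the sarcoglycan Sgcd (1.87-fold) and the Foxm1 row given above. Their adjusted p-values lay between 0.00165 and 0.0480.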

How the data were processed

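Tissue was lysed in Trizol, RNA was purified on columns with DNase, and Illumina libraries were made, per the labels' protocols. The submitters' processing notes name the rn6 build and FastQC. The sources used here give no aligner, counter or strand setting. The values the authors deposited are a signal: read from the values, an estimated read count divided by 1 factor per library (1 read is worth 0.745 to 0.946 in the 6 libraries), of which 80.9% to 81.8% are whole reads to within 0.05. Reads were therefore not recovered and no count model was run. Of 19230 rows, 1046 merge several genes, 991 of these among the rows tested, and genes that overlap or resemble each other may share reads. No value of 0 was taken to mean absence.

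Columns carry the group and a number from 0 to 2, which the sample titles do not share, so columns were tied to groups only. All 12 columns were used. Rows with a mean of at least 1 over the 6 SuHx libraries were fitted with limma 3.58.1 (R 4.3.3) on the log2 of signal + 1 (9 lung libraries, group means, eBayes with trend, two-sided) and called where the p-value, adjusted by Benjamini-Hochberg over 15230 rows, was under 0.05. A second fit of 6 libraries compared endothelial cells (day 4 in the labels, day 0 in the column names) with normoxia lung at day 0. Folds are ratios of geometric means of signal plus 1, which understate low genes, and the SE is that of the log2 difference. The fit was tested on simulated data.

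Of 1275 symbols in 50 lists (31 pathway, 19 marker), 1165 matched a row by symbol, 87 in a merged row, 16 by a synonym and 7 not at all. The comparison and these lists were chosen with earlier results of these data known. Named are Ahr, the AhR targets, the 14 largest called differences in each direction with a mean of at least 10 in 1 group, the 8 called genes of highest signal in each direction, and for each pathway list up to 4 called members or, without a call, the 2 of highest signal. Marker lists without a call are given as sums or counts instead, where given, and other genes are marked as chosen after their values were seen. One row named by this rule is not reported here. Alternatives were another scaling, filter, pseudocount, set of libraries or trend, a replicate block, marker covariates and each library left out.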

Additional observations from a re-analysis of the deposited data

How the results depend on the processing

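The count of 76 calls (30 higher, 46 lower) stayed within 1.5 times of itself with quantile normalization (92), size factor scaling (75), no filter on low rows (69), a mean of at least 5 (73), a pseudocount of 0.1 (69) or 5 (80), only the 6 SuHx libraries (83), only rows changed at least 2-fold (51), and, chosen after the data had been seen, without both Ahr-KO 2 and normoxia 2 (85). It moved further without the mean-variance trend (47, of which 16 higher), with all 12 libraries (126, with 51 higher and 75 lower), and with the cardiac (26, with 7 higher and 19 lower) or airway marker level (27, with 11 and 16) as a covariate. Leaving out 1 library at a time gave 32 to 100 calls, 10 to 42 higher and 21 to 58 lower. The total was 32, 39 and 39 without WT SuHx 0, 1 and 2, 37, 35 and 55 without Ahr-KO 0, 1 and 2, and 48, 96 and 100 without normoxia 0, 1 and 2. Of the 76 calls, 29 were lost in at least 10 of the 22 fits and 0 changed sign. A similar count did not mean the same rows: 55 of the 76 were kept with the 6 SuHx libraries alone. Without both Ahr-KO 2 and normoxia 2, the calls kept were 49. The 51 rows changed at least 2-fold are a subset of the 76 and not another fit. With the number of the columns as a replicate block the count was 82 (32 higher, 50 lower), with 58 of the 76 among them. Deviations from the group mean correlated between same-numbered libraries at -0.017, 0.074 and 0.19, so the numbers were not taken to pair the samples. Some genes that were not called had the opposite sign in some fit. With 1 library left out, their log2 differences ranged over Ahr (-0.14 to 0.27), Atp5b (-0.16 to 0.0262), Fn1 (-0.0862 to 0.23), Fth1 (-0.17 to 0.0822), Ifi27 (-0.30 to 0.19), Nfkbia (-0.21 to 0.45), Nrp1 (-0.10 to 0.22), the row of Pcna (-0.0407 to 0.10), Serpinb2 (-0.39 to 0.44) and Tsc22d3 (-0.30 to 0.20). Under other alternatives (quantile normalization, the marker covariates, or both libraries 2 left out) the opposite values were Actc1 (-0.96 and -0.47), Atp5b (0.0280), Epas1 (0.0764), the row of Pcna (-0.0242), Scin (-0.73 and -0.56), Serpinb2 (-0.13), Tsc22d3 (0.59 and 0.33) and Xdh (0.25 and 0.16), and the cause was not tested. Neither scaling moved the median of all rows by over 0.1. Depth limits the rows with a mean under 1 in 1 group (288, of which 1 was called).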

Other observations

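Levels in isolated endothelial cells showed where some of the called genes are abundant. Among the genes called higher in endothelial cells than in normoxia lung were Edn1, with 21094, 13696 and 19091 in the endothelial cells, Ackr3 (16675, 23123 and 27928), Tiparp (6736, 6692 and 7532) and Acvrl1 (42236, 39579 and 35947) from the lower group, and Gja4 (4824, 7535 and 6222), Dll4 (7535, 9852 and 10182) and Bmp2 (969, 907 and 716) from the higher one. The AhR targets Cyp1a1 (3003.5, 1389 and 1123) and Nfe2l2 were called higher in endothelial cells too. Cyp1b1 (169.6, 113 and 165), Nqo1, Aldh3a1, the Ugt1a6 row and Ms4a7 (9.11, 8.44 and 6.24) were called lower in endothelial cells than in normoxia lung.

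Some called genes are neighbours in the gene order of build GRCr8, by symbol, in which 13490 tested rows and 68 called rows could be placed. With at most 5 tested genes between them there were 8 called pairs, 7 of them lower together: Ahrr with Exoc3, Cytl1 with Stk32b and Il1r1 with Il1r2 (0 genes between), Tiparp with Veph1 and Nectin1 with Mfrp (2), Ms4a7 with Ms4a8 (3) and Nqo1 with Pmfbp1 (4). Rarb (lower) and Lrrc3b (higher) had 3 between them. Of the 15 tested genes on each side of Ahr, 0 were called by limma, 6 did not overlap between groups (22.0% of all rows) and 2 had an unadjusted p under 0.05. Complement C5, named after its values were seen, was uncalled in spite of a wide gap, with 547, 541 and 344 in WT SuHx and 31.0, 16.8 and 14.4 in Ahr-KO (adjusted p = 0.149). The normoxia lungs, which share the estimate of the spread, had 15.9, 726 and 444. In the fit without normoxia library 0, the lowest of these, C5 was called (adjusted p = 0.000874 by limma).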
